A study of Mus musculus with 6 samples.

Results

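The genes described here are 9 mouse genes whose human or mouse transcripts have been reported to be spliced differently when the splicing factor U2AF1 carries the S34F substitution. They are H2afy, Strap, Atg7, Picalm, Gnas, Bcor, Irak4, Kmt2d and Ints3, taken by symbol from a table of 54532 genes. All 9 were found and all 9 passed the filter on low counts, which left 13444 genes. RNA was measured in 32D cells, a mouse myeloblast-like line kept in medium with fetal serum and interleukin-3. In the S34F group the cells had received an MSCV-IRES-GFP retrovirus with human U2AF1 S34F, and in the WT group the same vector with human wild-type U2AF1. Each group had 3 libraries. Both groups therefore carried a human U2AF1 construct beside their own U2af1, and no untransduced cells were compared. Mouse U2af1 had 91.9, 57.3 and 91.7 CPM (counts scaled to a common library size by the TMM method, 1 count being worth 0.0523 to 0.0606 CPM) in S34F replicates 1 to 3, against 97.9, 58.6 and 56.9 CPM in WT replicates 1 to 3 (log2 fold change 0.17, edgeR adjusted p = 0.721). Gene counts do not read the allele, so this does not check the labels. The labels give neither whether a group is 1 clone or a pool nor whether its libraries are separate cultures. All p-values rest on the spread among these libraries, which may be technical.

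U2AF1 binds the AG at the 3′ end of an intron and, with its partner U2AF2, marks where an exon begins. The S34F change lies in a zinc finger that contacts RNA, and it alters which 3′ splice sites are used well, mainly according to the base just before the AG. It is a recurrent mutation of myelodysplastic syndrome and acute myeloid leukemia. A switch between isoforms can leave the number of transcripts of a gene as it was. Gene counts add the reads of all isoforms, so the values below describe how much RNA each gene had and do not read which isoform was made.

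Annotated alternative exons of these genes are shown first, since the counts sum over them. They are not chosen as the exons reported to respond to S34F. In the GENCODE M21 annotation of mm10, 10 coding exons of 6 of the genes are carried by some coding models and skipped by others. Strap, Irak4 and Ints3 had none by this definition. The 6 exons printed are the pair in H2afy and those with at least 2 coding models each way. They are given 5′ to 3′, and the capital marks the first base of the exon, next to the 3′ splice site that U2AF1 contacts. The H2afy exons, on chromosome 13 of mm10, minus strand, are mutually exclusive. The 91-base exon (chr13:56088252-56088342) belongs to macroH2A1.1, the form that binds ADP-ribose, and the 100-base exon (chr13:56089758-56089857) to macroH2A1.2, which does not.
H2afy macroH2A1.1 exon: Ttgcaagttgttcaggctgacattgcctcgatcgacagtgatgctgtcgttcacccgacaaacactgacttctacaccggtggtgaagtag
H2afy macroH2A1.2 exon: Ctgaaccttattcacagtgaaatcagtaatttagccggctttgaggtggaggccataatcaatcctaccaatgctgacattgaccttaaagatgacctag

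The 45-base exon of Gnas lies at chr2:174336747-174336791 on the plus strand. It separates the long from the short form of the G protein subunit, and 5 coding models carry it while 3 skip it.
Gnas exon: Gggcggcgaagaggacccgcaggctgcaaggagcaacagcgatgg

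The remaining 3 are in-frame exons of Picalm and Bcor. Those of Picalm lie at chr7:90182219-90182368, with 150 bases, and at chr7:90194273-90194296, with 24 bases, both on the plus strand, and each is carried by 4 coding models and skipped by 4. The 54-base exon of Bcor lies at chrX:12055639-12055692 on the minus strand, carried by 2 coding models and skipped by 3.
Picalm 150-base exon: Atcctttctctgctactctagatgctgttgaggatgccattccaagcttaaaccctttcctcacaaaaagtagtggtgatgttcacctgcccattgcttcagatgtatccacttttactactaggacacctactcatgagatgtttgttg
Picalm 24-base exon: Aatggcatgcattttccacaatac
Bcor exon: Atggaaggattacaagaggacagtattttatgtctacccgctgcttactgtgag

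Of these exons, 1 begins with G and 3 with A. Over all 201 annotated 3′ splice sites of the 9 genes, 44.8% are followed by G and 27.9% by A, against 47.8% and 25.9% of the 214766 sites of all protein-coding genes in the table. These are bases after the AG. The base just before the AG, by which S34F mainly acts, lies in the intron and was not read. The shares of G and A therefore do not tell how these sites respond to S34F. The genes are long and have many models. Their median union exon length was 6970 bases, with 8 transcripts and 19 annotated 3′ splice sites, against 3760 bases, 4 transcripts and 7 sites over all tested genes. Kmt2d has 56 such sites, the most of the 9.

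None of the 9 genes passed the test between S34F and WT cells. The edgeR quasi-likelihood test, with Benjamini-Hochberg adjustment over all tested genes, called 0 of 9 at an adjusted p under 0.05, where it called 2.18% of all genes, 1.58% as higher and 0.595% as lower in S34F. By DESeq2, which called 8.58% of all genes, 1 of the 9 passed, namely Gnas. When DESeq2 was run on the genes edgeR tested, in a comparison added after the data were seen, it called 8.62% of all genes and 2 of the 9, Gnas and Atg7. By limma-voom, with 2.01% of all genes called, 0 of the 9 passed. Gnas and Atg7 had an unadjusted p under 0.05, and these 2 are 22.2% of the 9, against 22% of all genes. The median size of the log2 fold change was 0.23 in these genes and 0.24 over all genes, and 5 were positive and 4 negative. The 3 S34F libraries lay on one side of the 3 WT libraries in 5 of the 9 genes, against 27.1% of all genes.

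**Figure D1:**
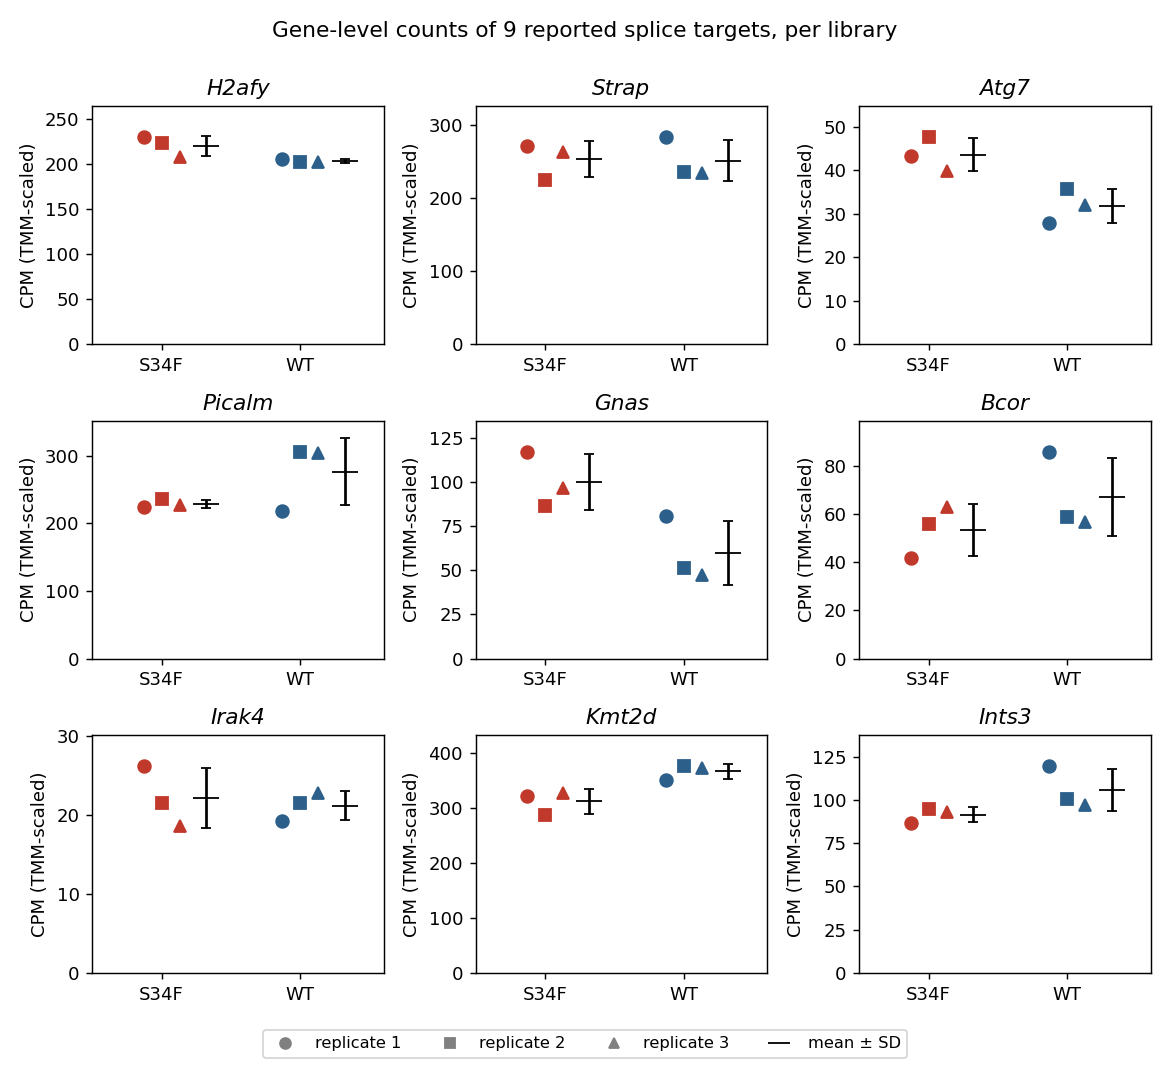
Level of each gene in every library, in TMM-scaled CPM on axes that start at 0, with S34F left of WT, marker shapes for replicates and a bar for the mean ± SD of 3 libraries. Gnas and Atg7 have, like H2afy, all S34F libraries above all WT libraries, Kmt2d and Ints3 all below, and in Picalm WT replicate 1 lies beside the S34F libraries.

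Libraries of 1 group were not equally alike, which bears on each spread below. The biological coefficient of variation was 3.16% between WT replicates 2 and 3, while it ran from 16.5% to 21.5% for the 5 remaining within-group pairs and from 21.7% to 29.5% across groups. The chi-square of counts per degree of freedom was 2.30 for that close pair and 25.0 to 40.5 for the 5 others. Counting error alone would give a value near 1, and the value of the close pair lies above it. This measure does not show that the pair came from separate cultures. The labels list them as separate samples and they enter as 2 libraries. Summed into 1, they left 20 of all genes called where 293 were called otherwise, and 0 of the 9 in either case. Totals ran from 16509899 to 19129250 counts. The lowest count of any of the 9 genes was 311, for Irak4, at which counting error alone is 5.67%. Of the 12 myeloid progenitor markers, 8 averaged over 1 CPM, namely Ptprc, Csf2rb, Ctsg, Spi1, Il3ra, Mpo, Myb and Prtn3. Myb averaged 244 CPM in S34F and 320 CPM in WT, and Prtn3 31.8 and 42.1 CPM (edgeR adjusted p = 0.319 and 0.325). The rest of these 8 had positive log2 fold changes. Kit, Cd34 and Elane reached at most 0.26 CPM in S34F and 0.487 CPM in WT, and Cebpa was at 0. Spi1, the myeloid transcription factor PU.1, rose, with 217, 194 and 170 CPM in S34F replicates 1 to 3 against 120, 131 and 134 CPM in WT replicates 1 to 3 (log2 fold change 0.60, edgeR adjusted p = 0.0491). This adjusted p sits at the threshold and was not recomputed under other settings. Spi1 was singled out after its values were seen, and its part in the values below was not tested. T cell markers summed to at most 0.282 CPM in S34F and 0.162 CPM in WT libraries, and B cell markers to at most 0.780 and 1.41 CPM. Summed erythroid markers lay at 0.903 to 2.03 CPM in S34F and 0.919 to 1.41 CPM in WT, and fibroblast and epithelial markers at 0.597 to 3.07 and 2.01 to 2.95 CPM. The macrophage markers, of which 3 of 5 averaged over 1 CPM, summed to 260 to 350 CPM in S34F and 229 to 243 CPM in WT. Most of that sum is Adgre1, at 245 CPM in S34F and 217 CPM in WT on average. Cd68 averaged 32.2 CPM in S34F and 11.7 CPM in WT, without overlap (2.77-fold, edgeR adjusted p = 0.0695). Csf1r averaged 18.6 CPM in S34F and 6.85 CPM in WT, with overlap (2.72-fold, edgeR adjusted p = 0.217). The part of these markers in the values below was not tested. The 12 myeloid progenitor markers summed to 1960 to 2380 CPM in S34F and 1670 to 1980 CPM in WT.

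Gnas had the largest change of the 9. It encodes the stimulatory G protein alpha subunit, which couples receptors to adenylyl cyclase and so raises cyclic AMP, and its locus (ENSMUSG00000027523, chromosome 2, 174284320 to 174346744, plus strand, mm10) also makes other imprinted transcripts that share its later exons. It reached 117, 86.2 and 96.4 CPM in S34F replicates 1 to 3, against 80.6, 51.3 and 47.2 CPM in WT replicates 1 to 3. The groups did not overlap, but WT replicate 1 lay nearer to S34F replicate 2 than to the other WT libraries. The fitted ratio was 1.67-fold, a log2 fold change of 0.74 ± 0.21 (SE, 3 libraries per group), and it did not pass (edgeR adjusted p = 0.0995). The 95% interval ran from 1.20-fold to 2.33-fold. DESeq2 gave nearly the same size, 0.75, with an adjusted p of 0.0164 (0.0209 on the genes edgeR tested), while over all alternatives the adjusted p lay between 0.00532 and 0.336. Once each library's trend with GC content was removed, the log2 fold change was 0.595 (edgeR adjusted p = 0.139), the lowest of the alternatives. Without WT replicate 1 the log2 fold change was 1.03 (edgeR adjusted p = 0.0159), a fit in which the WT group is the closest pair of libraries. The antisense genes that overlap its exons, Nespas and Gm20721, averaged 0 and 0.281 CPM in S34F and 0 and 0.272 CPM in WT.

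Irak4 encodes the kinase that passes signals from Toll-like and interleukin-1 receptors through MyD88. Irak4 (ENSMUSG00000059883) spans chromosome 15, 94543643 to 94581815, on the plus strand of mm10. Its level was 26.1, 21.5 and 18.6 CPM in S34F replicates 1 to 3, against 19.2, 21.5 and 22.8 CPM in WT replicates 1 to 3. The S34F libraries lay on both sides of the WT libraries, with the highest and the lowest value of the 6 both in S34F. The log2 fold change was 0.06 ± 0.16 (SE, 3 libraries per group, edgeR adjusted p = 0.857), with an interval from 0.807-fold to 1.35-fold. Without S34F replicate 1 it was -0.08 (adjusted p = 0.833). Its exons overlap those of Twf1 on the opposite strand over 7.9% of their length. Twf1 averaged 45.4 CPM in S34F and 45.7 CPM in WT, above Irak4, and how strand was used in counting is not given.

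Atg7, the E1-like enzyme that activates the ubiquitin-like proteins of autophagy, came second in size. Atg7 (ENSMUSG00000030314) spans chromosome 6, 114643097 to 114860614, on the plus strand of mm10. It stood at 43.3, 47.6 and 39.8 CPM in S34F replicates 1 to 3, against 27.7, 35.6 and 32.0 CPM in WT replicates 1 to 3. Every S34F library lay above every WT library. The SD was 3.88 CPM in S34F (CV 8.9%) and 3.93 CPM in WT (CV 12.4%). The ratio was 1.37-fold with a 95% interval from 1.11-fold to 1.70-fold, a log2 fold change of 0.46 ± 0.14 (SE, 3 libraries per group), which did not pass (edgeR adjusted p = 0.111; 0.0407 to 0.330 over the alternatives). DESeq2 gave 0.0552, and 0.0493 on the genes edgeR tested. For Gnas and Atg7 alone among the 9 the interval, which is not adjusted for the number of genes, left out a ratio of 1.

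Picalm, an adaptor that brings clathrin and AP-2 to the membrane and is a fusion partner in leukemia, had WT libraries on both sides of the S34F libraries. Picalm (ENSMUSG00000039361) spans chromosome 7, 90130213 to 90213465, on the plus strand of mm10. It had 224, 236 and 227 CPM in S34F replicates 1 to 3, against 219, 306 and 305 CPM in WT replicates 1 to 3. The S34F libraries were within a few percent of each other (CV 2.71%), and WT replicate 1 lay below all of them while the other WT libraries lay above. The log2 fold change was -0.27 ± 0.14 (SE, 3 libraries per group, edgeR adjusted p = 0.303). It was -0.41 without WT replicate 1 (adjusted p = 0.0423) and -0.13 once each library's trend with GC content was removed (adjusted p = 0.597), so its size rests on the libraries kept and the correction used. Over all alternatives its adjusted p lay between 0.0423 and 0.667.

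H2afy, which encodes the histone variant macroH2A1, had the tightest WT libraries. H2afy (ENSMUSG00000015937) spans chromosome 13, 56073619 to 56136361, on the minus strand of mm10. Its level was 229.7, 223 and 208 CPM in S34F replicates 1 to 3, against 206, 202 and 202 CPM in WT replicates 1 to 3. All S34F libraries lay above all WT libraries, though S34F replicate 3 lay close to WT replicate 1. The ratio was 1.08-fold (log2 fold change 0.12 ± 0.10, SE, 3 libraries per group, edgeR adjusted p = 0.533), with an interval from 0.926-fold to 1.27-fold. This is the total over macroH2A1.1 and macroH2A1.2 transcripts, and the share of each was not measured. The predicted gene Gm47071 overlaps 7.4% of its exon bases on the opposite strand and averaged 5.43 CPM in S34F and 8.91 CPM in WT.

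Kmt2d is the methyltransferase that marks enhancers on lysine 4 of histone H3, and Bcor a corepressor that recruits a variant Polycomb complex. Kmt2d (ENSMUSG00000048154) spans chromosome 15, 98831669 to 98871204, on the minus strand of mm10. Kmt2d was the most counted of the 9, at 321, 286 and 327 CPM in S34F replicates 1 to 3, against 349, 375 and 373 CPM in WT replicates 1 to 3. Every S34F library lay below every WT library. The ratio was 0.852-fold, a log2 fold change of -0.23 ± 0.11 that did not pass (SE, 3 libraries per group, edgeR adjusted p = 0.251). Kmt2d has the highest GC content of the 9, 58.4%, and with the GC trend removed its log2 fold change was -0.40 (adjusted p = 0.119; 0.119 to 0.579 over the alternatives).

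Bcor (ENSMUSG00000040363) spans chromosome X, 12036740 to 12160355, on the minus strand of mm10. Bcor had 41.7, 55.6 and 63.1 CPM in S34F replicates 1 to 3, against 85.8, 58.9 and 56.9 CPM in WT replicates 1 to 3. The groups overlapped, since S34F replicate 3 exceeded WT replicates 2 and 3, and the lowest and highest libraries were the first replicates of S34F and WT. Its log2 fold change of -0.33 ± 0.20 (SE, 3 libraries per group, edgeR adjusted p = 0.370) was -0.11 without WT replicate 1 and -0.19 without S34F replicate 1.

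Strap and Ints3 act on RNA. Strap is a WD-repeat protein of the SMN complex, which assembles small nuclear ribonucleoproteins, and also binds TGF-beta receptors. Strap (ENSMUSG00000030224) spans chromosome 6, 137735078 to 137751932, on the plus strand of mm10. It had 271, 225 and 263 CPM in S34F replicates 1 to 3, against 283, 235 and 235 CPM in WT replicates 1 to 3. The groups covered almost the same range, and the log2 fold change of 0.01 ± 0.13 (SE, 3 libraries per group, edgeR adjusted p = 0.966) had an interval from 0.826-fold to 1.23-fold. Its sign changed with the scaling: it was -0.02 with upper-quartile factors and with library totals alone.

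Ints3 is a subunit of Integrator, which cleaves nascent RNA, and of the SOSS complex, which binds single-stranded DNA. Ints3 (ENSMUSG00000027933) spans chromosome 3, 90391388 to 90433622, on the minus strand of mm10. It had 86.4, 94.6 and 92.8 CPM in S34F replicates 1 to 3, against 119, 100.4 and 96.9 CPM in WT replicates 1 to 3. The S34F libraries lay below the WT libraries, S34F replicate 2 only just, and WT replicate 1 stood above the rest. The log2 fold change was -0.21 ± 0.12 (SE, 3 libraries per group, edgeR adjusted p = 0.328), and -0.11 without WT replicate 1. With the GC trend removed it was -0.32 (adjusted p = 0.161; 0.161 to 0.554 over the alternatives).

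**Figure D2:**
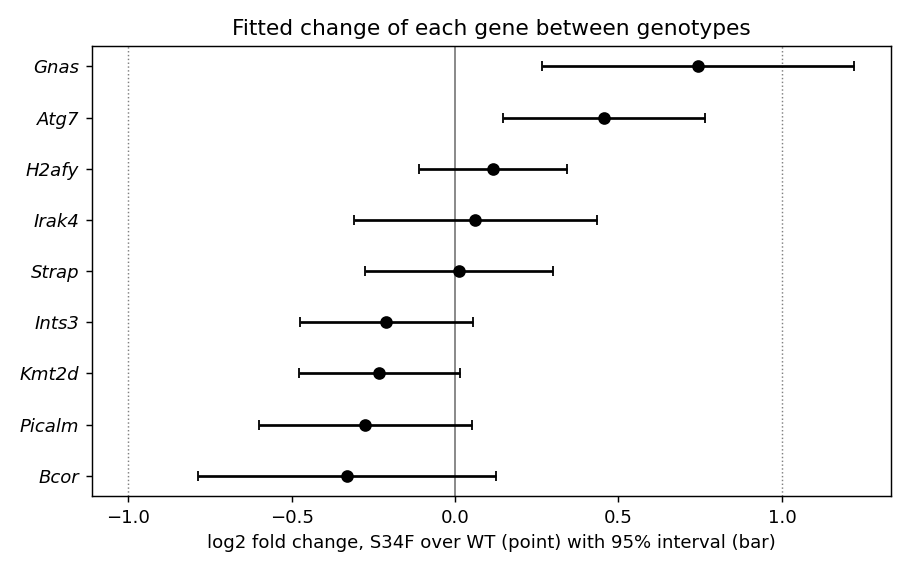
Fitted log2 fold change of S34F over WT for each gene (point) with its 95% interval from the edgeR fit (bar), ordered by size, with dotted lines at 2-fold either way. The interval of Gnas reaches 2.33-fold, and those of the other 8 genes stay within 2-fold.

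The intervals say which changes in total RNA the edgeR fit leaves room for when WT replicates 2 and 3 enter as separate libraries. For 8 of the 9 genes the 95% interval lay within 2-fold either way, and for 5, H2afy, Strap, Irak4, Kmt2d and Ints3, within 1.5-fold. A p that misses the threshold does not show that the level was the same in S34F and WT cells. The median SE of the 9 was 0.136, against 0.180 over all genes.

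**Figure D3:**
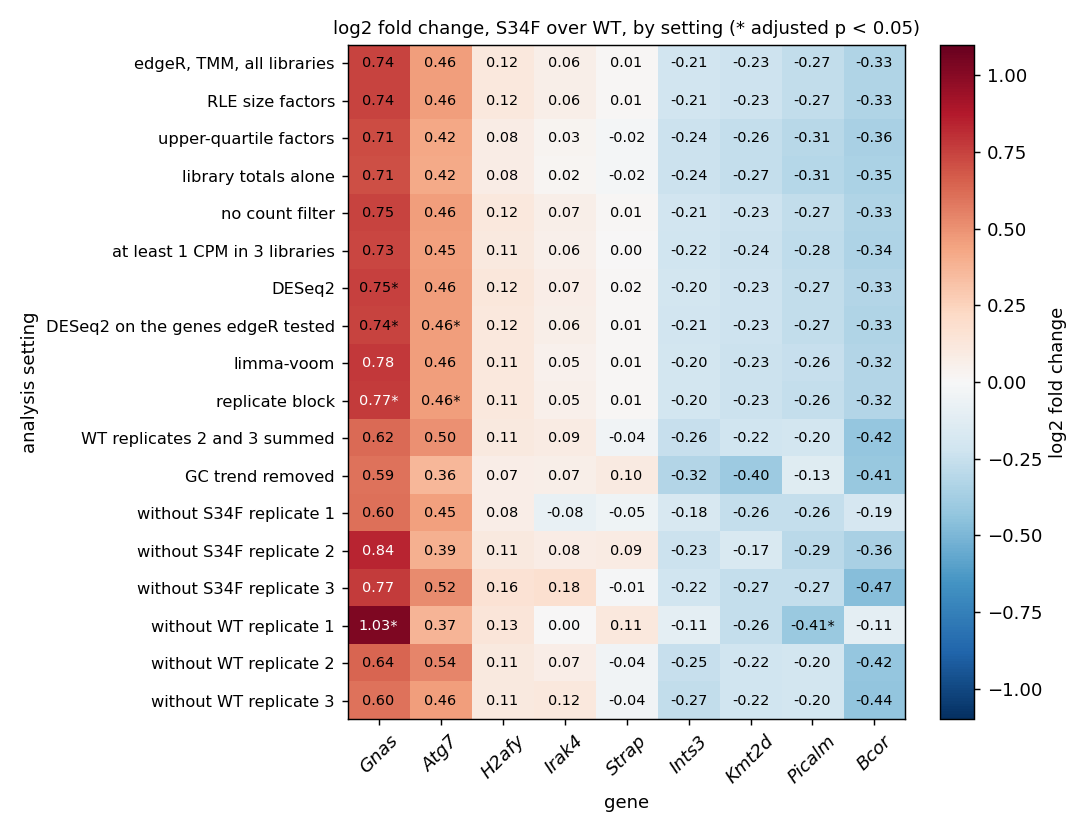
Fitted log2 fold change of S34F over WT (colour and number) for each gene, in columns from most positive to most negative, under each setting, in rows, with an asterisk for an adjusted p under 0.05. Asterisks stand at Gnas under both DESeq2 settings, under the replicate block and without WT replicate 1, at Atg7 under DESeq2 on the genes edgeR tested and under the replicate block, and at Picalm without WT replicate 1.

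Across libraries the 9 genes did not move as a block. Over the 6 libraries the log2 levels of Bcor and Ints3 were the most alike (Pearson r = 0.92), both highest in WT replicate 1 and lowest in S34F replicate 1. Those of Picalm and Gnas were the most opposed (r = -0.92). These are descriptions over 6 libraries that share the genotype split and the close pair of WT libraries. For the 3 genes with the smallest unadjusted p, the 2 most similar genes were sought, among 11095 that averaged 2 CPM or more, in the same way. For Gnas they were Hint1 and Atf4 (r = 0.998 each), for Atg7 Msi1 and Ifi27 (r = 0.997 each), and for Kmt2d Mavs (r = 0.996) and Gm38102 (r = 0.995). Such likeness was common, since 753 genes had an r over 0.9 with Gnas, 208 with Atg7 and 247 with Kmt2d. Hint1, a nucleotide hydrolase gene, had a log2 fold change of 0.58 (edgeR adjusted p = 0.0929) and Atf4, the transcription factor of the integrated stress response, 0.51 (edgeR adjusted p = 0.127). Msi1, an RNA-binding protein gene, had 0.97, Ifi27 0.82, Mavs, the mitochondrial adaptor of RNA sensing, -0.37 and Gm38102 -1.18 (edgeR adjusted p = 0.0958, 0.0535, 0.178 and 0.0852).

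Per kilobase of union exon, Strap had the highest level of the 9, with 81.9 ± 7.93 RPKM (CPM per kilobase) in S34F and 81.2 ± 9.02 RPKM in WT (SD, n = 3 each). H2afy followed with 32.3 ± 1.67 RPKM in S34F and 29.8 ± 0.322 in WT. Ints3, Kmt2d and Picalm came next, at 16.1 ± 0.763, 15.6 ± 1.11 and 14.5 ± 0.394 RPKM in S34F and at 18.6 ± 2.13, 18.3 ± 0.715 and 17.6 ± 3.17 RPKM in WT. Gnas, Bcor and Atg7 had 8.93 ± 1.41, 6.17 ± 1.25 and 6.25 ± 0.557 RPKM in S34F and 5.34 ± 1.63, 7.75 ± 1.87 and 4.56 ± 0.564 RPKM in WT. Irak4 was lowest, with 4.4 ± 0.758 RPKM in S34F and 4.21 ± 0.364 RPKM in WT. By the mean of all libraries Strap stood at the 96.1 percentile of tested genes and Irak4 at the 38.3 percentile. Union exons include the sequence of rare models, and Gnas has 24 models, so this scale depends on the annotation.

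The known partners of each gene were counted beside it, in 10 lists with 118 genes, of which 108 could be tested. In all 1 rose, 0 fell and 107 did not pass, so 0.926% were called against 2.18% of all genes. An unadjusted p under 0.05 was found for 28, or 25.9% against 22% of all genes. Limma-voom called 1 of the 108, or 0.926% against 2.01% of all genes. DESeq2 called 12, where it called 8.58% of the 12615 genes its own filter left. How many partner genes that filter left was not counted. On the genes edgeR tested, DESeq2 called 13 of the 108, where it called 8.62% of all genes. The groups did not overlap in 34 of the 108, or 31.5% against 27.1% of all genes, and by list this ran from 0 of 10 for the partners of Strap and 0 of 8 for those of Kmt2d to 8 of 16 for those of Ints3. The median log2 fold change of the 108 was -0.06, and over all genes it was 0.00.

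**Figure D4:**
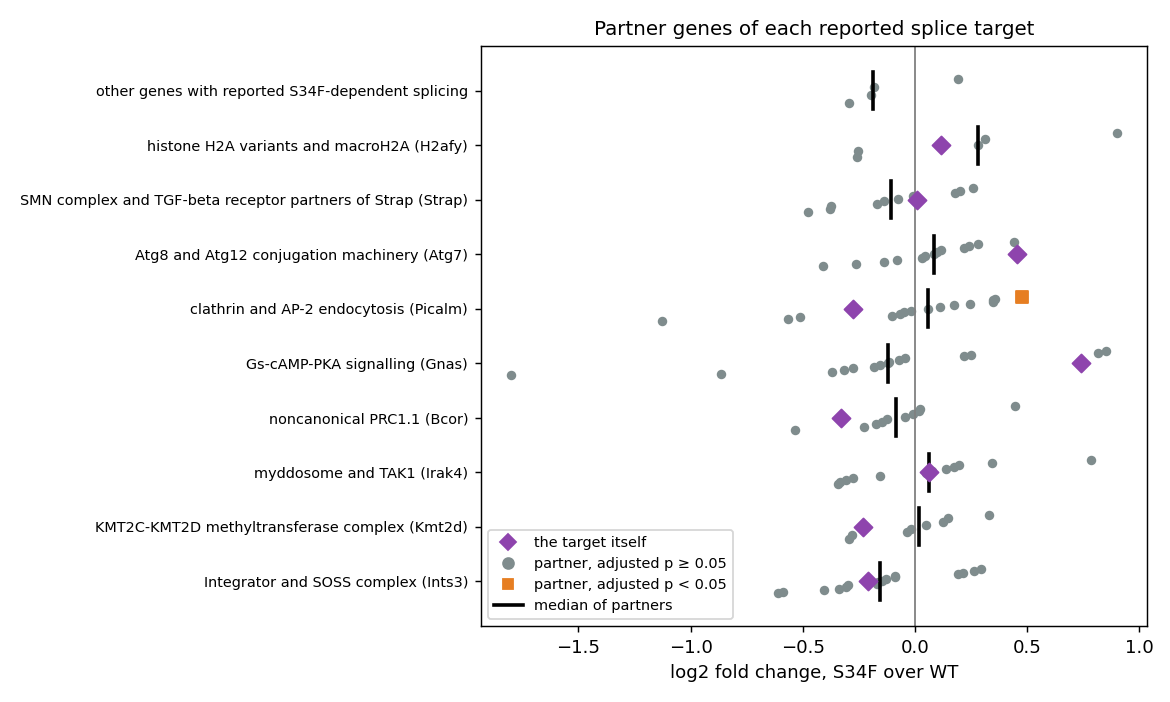
log2 fold change of S34F over WT for each tested partner gene (grey circles, or an orange square where the adjusted p is under 0.05), with the median of each list (black line) and the reported splice target itself (purple diamond). Dnm2, in the list of clathrin and AP-2, is the 1 gene called.

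Dnm2, the dynamin that pinches off clathrin-coated vesicles, was the gene that rose, in the list beside Picalm. It had 338, 341 and 336 CPM in S34F replicates 1 to 3, against 241, 240 and 249 CPM in WT replicates 1 to 3. The libraries within each group were nearly level and the groups lay far apart for their spread. The rise was 1.39-fold (log2 fold change 0.48 ± 0.10, SE, 3 libraries per group, edgeR adjusted p = 0.0492). The adjusted p sits at the threshold and passed in 8 of 17 alternatives, with a range of 0.000174 to 0.254. With WT replicates 2 and 3 summed it was 0.234 at a log2 fold change of 0.48, and with the GC trend removed 0.132 at 0.33. Of the other 14 tested genes of clathrin-mediated uptake none passed, and the list's median was 0.06. An unadjusted edgeR p under 0.05 was found for 6 of its 15 tested genes, or 40% against 22% of all genes. The groups did not overlap in 7, or 46.7% against 27.1% of all genes. Of these, Dnm2, Epn1, Hip1 and Necap2 were higher in S34F, and Eps15, Fcho2 and Itsn1 lower.

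No gene passed in the other 9 lists. The Integrator and SOSS subunits had 12 of 16 negative values and a median log2 fold change of -0.16. Of the 8 whose groups did not overlap, Inip was higher in S34F and the rest lower. Ints10 had the smallest p there, with 37.5, 30.3 and 37.4 CPM in S34F replicates 1 to 3 against 59.1, 51.0 and 50.6 CPM in WT replicates 1 to 3. All S34F libraries were lower, with a log2 fold change of -0.61 ± 0.13 (SE, 3 libraries per group, edgeR adjusted p = 0.0549). Among the 15 tested genes between Gs and protein kinase A, 4 were positive and 11 negative, with a median of -0.12, while Gnas itself was at 0.74. The regulatory subunit gene Prkar2b had 165, 229 and 148 CPM in S34F replicates 1 to 3 against 259, 361 and 368 CPM in WT replicates 1 to 3. These did not overlap, and the log2 fold change was -0.87 ± 0.20 (SE, 3 libraries per group, edgeR adjusted p = 0.0635).

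The 13 tested genes of the Atg8 and Atg12 conjugation machinery, in which Atg7 is the E1, had 9 positive values and a median of 0.08. Gabarap, an Atg8 family protein that Atg7 activates, had 161, 150 and 162 CPM in S34F replicates 1 to 3 against 111, 120.0 and 117 CPM in WT replicates 1 to 3. The groups did not overlap, and the log2 fold change of 0.44 ± 0.10 (SE, 3 libraries per group, edgeR adjusted p = 0.0599) was close to that of Atg7. The list of histone H2A variants, which also holds Atrx, had 5 tested genes and a median of 0.28. In it H2afj had a log2 fold change of 0.90 ± 0.21 (edgeR adjusted p = 0.0662). The other macroH2A gene, H2afy2, stayed below the count filter, with 0.187 CPM in S34F and 0.353 CPM in WT on average.

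For the remaining genes, the median log2 fold change was -0.11 for the 10 tested SMN and TGF-beta receptor partners of Strap. It was -0.08 for the 10 genes listed with Bcor's Polycomb complex, Bcl6 among them. It was 0.06 for the 12 genes of the myddosome and TAK1 and 0.02 for the 8 tested genes of the KMT2C and KMT2D complex. The members with the smallest p were Tgfbr1, Ring1, Tollip and Kdm6a, with log2 fold changes of -0.47, 0.45, 0.34 and -0.28 (edgeR adjusted p = 0.199, 0.0861, 0.117 and 0.240). In a short list of other genes with reported S34F-dependent splicing, 4 of 5 could be tested, 0 passed, and the median was -0.19. Casp8, the initiator caspase of death receptors, had the smallest p there, with a log2 fold change of -0.29 (edgeR adjusted p = 0.197).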

How the data were processed

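The deposited values are unnormalised counts of reads for each Ensembl gene in 6 mRNA libraries, made with a directional kit, per the labels. The submitters' processing notes name HISAT2, featureCounts and mm10. No version, annotation release or strand setting is given in the sources used here. Counts were tested in edgeR 4.0.16 (R 4.3.3; TMM, filterByExpr, robust quasi-likelihood F test, genotype only, two-sided, Benjamini-Hochberg at 0.05 over all genes tested). SEs are the log2 fold change over the root of F, and intervals use the test's degrees of freedom. CPM are TMM-scaled over tested genes. Alternatives were other scalings and filters, DESeq2 1.42.0 (with its own filter on low means, and, added after the data were seen, on the genes edgeR tested), limma-voom (limma 3.58.1), the replicate block, each library left out, WT replicates 2 and 3 summed, and removal of each library's loess trend with the GC content of the longest transcript (span 0.5). The procedure was tested on simulated data. Exons, lengths and GC content came from GENCODE M21, with values for 13433 of 13444 tested genes. The 9 genes, the lists, the rule for named genes (the 9, the called genes of a list, up to 3, or else its smallest p, and the 2 most similar genes of 3 members) and the alternatives were chosen with earlier results of these data known.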

Additional observations from a re-analysis of the deposited data

How the results depend on the processing

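All 9 genes were recomputed under 17 alternatives, 153 values in all, of which 145 kept their direction and 138 also their side of the threshold. The count of these genes called was 0 except for 1 by DESeq2 with its own filter on low means (higher in S34F), 2 by DESeq2 on the genes edgeR tested (both higher; added after the data were seen), 2 under the replicate block (both higher) and 2 without WT replicate 1 (1 higher, 1 lower). Of all genes, 10.5% were called under the replicate block and 8.51% without WT replicate 1, against 2.18% in the edgeR fit with all libraries. The DESeq2 fits called 8.58% with its own filter and 8.62% on the genes edgeR tested. Gnas passed with log2 fold changes of 0.75 and 0.74 by these DESeq2 fits and 0.77 under the replicate block, and Atg7 with 0.46 by the second DESeq2 fit and under the block. Without one library at a time, the count lay between 0 and 2, Gnas between 0.60 and 1.03, Atg7 between 0.37 and 0.54, and Picalm between -0.41 and -0.20. Strap reversed to -0.018 with upper-quartile factors, -0.020 with library totals alone and -0.035 with WT replicates 2 and 3 summed. Without one library Strap ranged from -0.050 to 0.113 and Irak4 from -0.083 to 0.176. The cause was not tested.

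Over all genes 293 were called, and 763 without a count filter, 1082 by DESeq2 with its own filter, which left 12615 genes with an adjusted p, 1159 by DESeq2 on the genes edgeR tested, 1418 under the replicate block, 20 with WT replicates 2 and 3 summed, 184 with the GC trend removed, and 19 to 1177 without one library (20 and 50 without S34F replicates 1 and 3, 1177, 19 and 22 without WT replicates 1, 2 and 3). Among partner genes 1 was called, and 8, 12, 13, 13, 0 and 0 under the same 6 settings in that order, and 0 to 12 without one library. The 10 partner genes named for their p and the 6 genes most like a member were recomputed too, and none of these 272 values reversed. Of them 214 kept their side of the threshold, 49 passed only under the alternative and 9 no longer passed. These genes were picked by their values in the same libraries. The deviations of same-numbered libraries from their group means had r = 0.332, 0.159 and 0.072 for replicates 1 to 3. S34F replicate 1 had r = -0.259 and -0.243 with WT replicates 2 and 3. These WT replicates were too alike to tell number 2 from 3. S34F replicate 2 had r = 0.159 and 0.153 with them, and S34F replicate 3 had 0.08 and 0.072. The check therefore cannot decide whether the numbers pair samples. The labels state no pairing, so the block is an alternative only.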
